A study of Mus musculus with 3 samples.

Results

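The genes of motile and primary cilia were followed in the hippocampus of young wild-type mice. They were chosen by symbol, and 87 of the 39377 rows of the deposited expression table matched. Of these, 58 had symbols grouped here as motile: 16 rows with Dnah symbols, 8 with Rsph, 31 with Cfap and 3 with Drc, while 0 rows carried a Dnai symbol. This grouping is by symbol, and not every product is a part of the axoneme. A further 23 rows belonged to ciliary transport, 15 with Ift and 8 with Bbs symbols. The last 6 were taken by name: Foxj1, Ccdc153, Tmem212, Arl3, Arl6 and Arl13b. Dnah2os and Ift88os, which matched by the start of their symbols, are opposite-strand transcripts rather than cilia proteins. Ift88os was listed at 0 in all libraries and Dnah2os at 0, 0.39 and 0 FPKM in libraries 1, 2 and 3.

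The samples were 3 libraries of total RNA from whole hippocampus of C57BL/6 mice of genotype WT, collected at postnatal day 14, with mixed cell types and no treatment given in the labels. They form 1 group, so no condition could be compared, and the comparisons are between genes inside the same libraries. Nothing in the labels tells separate animals from repeat preparations of 1 animal. A p-value here therefore reflects spread among the samples as prepared, and that spread could be technical.

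Cilia are microtubule-based projections of the cell surface. Ependymal cells and the choroid plexus epithelium carry tufts of cilia. Motile cilia, such as those of ependymal cells, beat through axonemal dynein arms. The activity of these arms is coordinated by radial spokes and the nexin-dynein regulatory complex. Neurons and astrocytes carry a single primary cilium that lacks these parts and receives signals through Hedgehog components and particular G protein-coupled receptors. Both kinds are built by intraflagellar transport (IFT), in which IFT-B particles mainly carry cargo to the tip and IFT-A particles back to the base. The BBSome, a complex of Bardet-Biedl syndrome proteins, moves membrane proteins out of cilia.

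Levels are in FPKM, fragments per kilobase of transcript scaled to the mapped total of the library, and ± gives the SD over n = 3 libraries. Estimated from the steps between low values, the libraries held about 3630000, 4280000 and 6080000 fragments, so that 3 fragments on a transcript of 2 kb amounted to 0.475, 0.408 and 0.287 FPKM. Markers of the labelled tissue were present: 6 of 6 neuron, 6 of 6 astrocyte and 5 of 6 oligodendrocyte markers stood more than 2-fold above the median gene, as did 3 of 6 hippocampal neuron markers, led by Neurod6. Of the microglia and endothelium markers, 2 of 6 in each list did, near the 26.7% of all genes that were called higher. All 6 germ cell markers of the testis, where a flagellum is built from many of the same genes, were listed at 0 in all 3 libraries. In whole tissue, fewer cells of a type and less RNA per cell cannot be told apart.

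Over all rows of each class, the transport median lay near that of expressed genes, and the motile median lay far under it. Expressed genes here are those averaging 1 FPKM or more, a cut not applied to the class medians. With this cut on both sides, the gap was smaller: the medians of mean FPKM were 3.59 for motile, 9.6 for transport and 10.5 for all genes. Without the cut, the median over all 39377 rows was 0 in each library. The median motile gene stood at 1.02, 0.54 and 0.89 FPKM in libraries 1, 2 and 3, and the median transport gene at 8.12, 8.97 and 10.04 FPKM. On the log2(FPKM + 1) scale, which understates differences of low genes, the motile median lay below the transport median by 2.17, 2.69 and 2.55 log2 units, a mean difference of -2.47 ± 0.268. The difference had the same sign in all 3 libraries and was larger than its spread. No test was run on it: with 3 libraries, the smallest p an exact sign-flip test allows is 0.25. The size depended on the low members: among those with a mean of at least 1 FPKM it was -1.40.

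A mean of at least 1 FPKM was reached by 29 of 58 motile rows (50%), 22 of 23 transport rows (95.7%), 6 of 6 named genes and 33.9% of all rows. Each gene past this level was compared with the median gene of its library, which stood at 10.5, 10.3 and 10.2 FPKM. The test was limma's, against a null of at most 2-fold and with Benjamini-Hochberg adjustment over all 13337 genes. The 2-fold null was set because FPKM of different genes also differ through length, GC content and mappability. Neither p-values nor SDs over libraries measure those differences. Over all genes 26.7% were called higher and 21.6% lower, 48.2% in either direction. Of the 29 motile genes tested, 4 were higher, 13 were lower and 12 were not called, and of the 22 transport genes 5 were higher, 2 were lower and 15 were not called. The transport counts are 22.7% and 9.09% of those tested and the motile counts 13.8% and 44.8%, though the filter had already removed every motile gene under 1 FPKM.

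**Figure D1:**
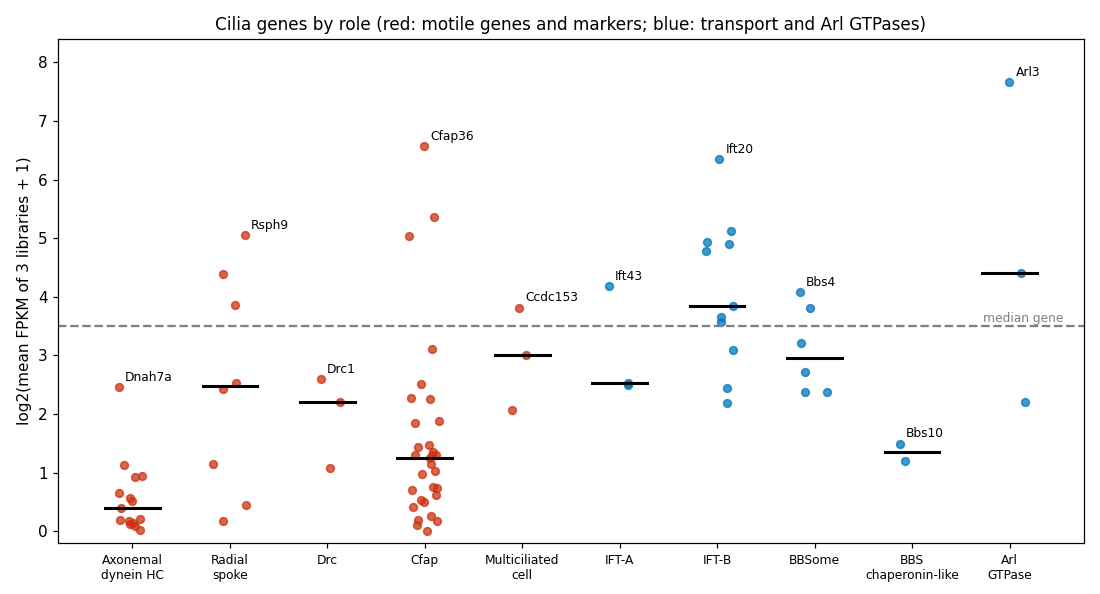
Each point is 1 cilia gene, placed by role on the x axis and by log2(mean FPKM of 3 libraries + 1) on the y axis; black bars are medians over the genes of a role and the dashed line is the median of all genes with a mean of at least 1 FPKM. Axonemal dynein heavy chains have the lowest median, with Dnah7a on top at 4.51 FPKM. IFT-B genes with Ift symbols lie around the dashed line, and Arl3 is the highest of all at 201 FPKM.

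Across the 84 protein-coding members above 0, level and transcript length ran in opposite directions, with a Spearman's rho of -0.48, against -0.28 over 12415 genes with a mean of at least 1 FPKM and a coding transcript. These are correlations across genes, given as a description: genes are not independent replicates, and FPKM already divides by length. The order was also present within the 14 IFT genes (rho -0.60), from Ift20 with a transcript of 1141 bases at the top to Ift80 with 4064 bases at the bottom.

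What the members share in sequence was looked for in their promoters, because RFX factors are known to drive genes of both kinds of cilia and bind the X-box, whose core reads GTTGCC. Promoters from RefSeq on GRCm38.p6, from 250 bases before to 50 after the start, were found for 70 of the 87 members. The core, on either strand, lay in the window of 16 of 46 motile genes (34.8%) and 8 of 19 transport genes (42.1%). It lay in 15.0% of 10432 genes with a mean of at least 1 FPKM and in 14.1% of all 27025 genes with a promoter. Among the 5 named genes with a promoter, Ccdc153 and Arl13b held it. A gene was counted if any of its windows held the core, and genes had on average 1.09 windows in the motile set, 1 in the transport set and 1.29 among those with a mean of at least 1 FPKM. A match is a description of letters and not of binding.

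Other patterns were searched on both strands. The extended core GTTGCCATG, which contains the first pattern, was found in 6.52% of motile and 0% of transport genes, against 0.796% of genes at 1 FPKM or more on average. The palindromic X-box, GTTNCC followed after 2 bases by GGNAAC, which can overlap the core, was in 1 motile and 1 transport gene, against 0.642%. The forkhead pattern TGTTTAC, of the kind bound by FOXJ1, was in 6.52% of motile and 0% of transport genes, against 3.1% of genes with a mean of at least 1 FPKM. CCAAT was in 39.1% and 57.9%, against 43.0%, and the GC box GGGCGG in 50% and 52.6%, against 68.8%.

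**Figure D2:**
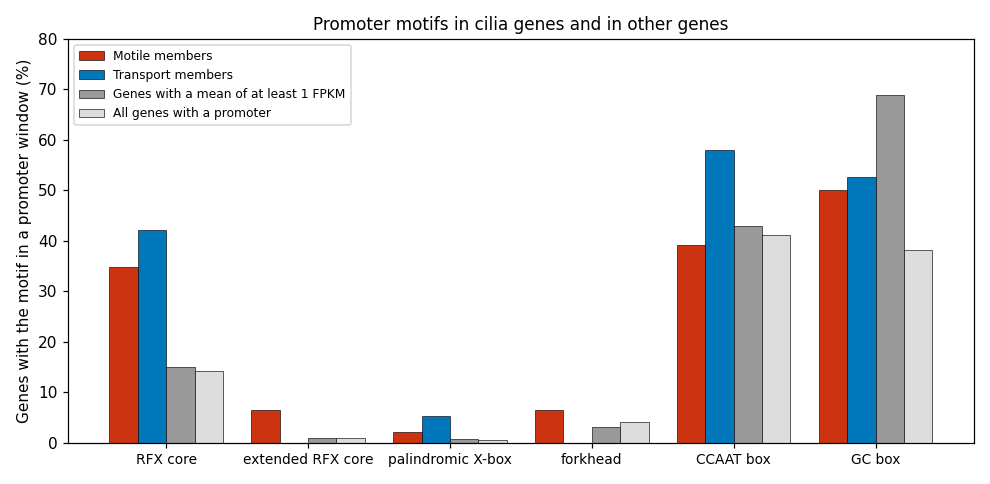
Bars give the share of genes (%) with each pattern on either strand of a promoter window, for motile members, transport members, genes with a mean of at least 1 FPKM and all genes with a promoter. The RFX core is in 34.8% of motile and 42.1% of transport genes, against 15.0% and 14.1% in the other sets; shares of 46 and 19 genes move by whole genes.

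Stretches around the core are printed for the highest member of each role that held it before the start used for its window. Those of Cfap298, which held it in opposed pairs, are added. This choice of stretches was made after the matches were seen. Each is 5′ to 3′ on the strand of its gene, with the core in capitals on either strand (GGCAAC is GTTGCC read on the other strand). In Dnah7a it lies at chr1:53706959-53707004, minus strand, in Drc1 at chr5:30281362-30281392, plus strand, and in Cfap20 at chr8:95434938-95434983, minus strand. The Cfap298 stretches lie at chr16:90935017-90935044 and chr16:90934897-90934925, minus strand, inside annotated exons. Of the Ift57 stretch 27 bases, and of the Drc1 stretch 5, also lie in an annotated exon. The annotated Dnah7a gene runs to base 53707301 and Drc1 begins at base 30281335, upstream of the starts used here. Their stretches therefore lie inside the annotated genes, and the Bbs7 stretch does so in part. The Ift57 and Ift140 stretches are at chr16:49699187-49699259 and chr17:25015957-25016002, plus strand. Bbs7 is at chr3:36613485-36613530, minus strand, Ccdc153 at chr9:44240505-44240550, plus strand, and Arl13b at chr16:62847196-62847241, minus strand.
Dnah7a: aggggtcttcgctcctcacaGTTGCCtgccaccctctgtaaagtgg
Drc1: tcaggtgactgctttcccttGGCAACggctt
Cfap20: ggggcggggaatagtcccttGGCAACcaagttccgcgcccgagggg
Cfap298, far: ggttttgGTTGCCcgGGCAACagctact
Cfap298, near: tttgactGTTGCCcctGGCAACagccact
Ift57: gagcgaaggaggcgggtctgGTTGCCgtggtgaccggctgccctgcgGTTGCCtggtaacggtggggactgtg
Ift140: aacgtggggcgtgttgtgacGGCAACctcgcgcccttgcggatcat
Bbs7: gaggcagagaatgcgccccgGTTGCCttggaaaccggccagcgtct
Ccdc153: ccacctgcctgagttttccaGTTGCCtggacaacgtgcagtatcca
Arl13b: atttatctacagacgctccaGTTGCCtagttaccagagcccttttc
The 2 Cfap298 stretches are the ones in which a core in one direction faces a core in the other at a distance of a few bases. The genes holding the core differed in level, from Cfap20 at 40.2 FPKM to Arl13b at 3.61 FPKM among those printed. Dnah7a, Dnah7b and Dnah7c, which are near copies, each count among the 16 motile genes.

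Foxj1 encodes the transcription factor that switches on the motile programme, and it was measured at a low and even level. It stood at 3.18, 3.12 and 3.33 FPKM in libraries 1, 2 and 3, a mean of 3.21 ± 0.108 FPKM. The 3 libraries were close to each other, although each value rested on about 27, 31 and 47 fragments. On GRCm38 its position is chr11:116330704-116335499, minus strand, with 3 exons in the transcript used. It was called lower than the median gene, by -1.43 log2 units (SE 0.128, adjusted p = 0.0165 by limma; lower in 3 of 3 libraries), but the call was lost when any 1 library was left out (adjusted p 0.0502 to 0.0608) or when every gene above 0 was tested (adjusted p = 1).

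The ependymal marker genes Tmem212 and Ccdc153 were above Foxj1 in every library. Tmem212 stood at 7.09, 6.71 and 7.32 FPKM and Ccdc153 at 9.12, 16.6 and 13.6 FPKM. Tmem212 had an SD of 0.308 FPKM, whereas Ccdc153 was lowest in library 1 and highest in library 2. Tmem212 was 0.573 ± 0.189 times Ccdc153, and the values of these genes did not overlap. Neither was called against the median gene (adjusted p = 1 for each).

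Choroid plexus markers differed between the libraries. Ttr, which encodes transthyretin and is abundant in choroid plexus epithelium, stood at 392, 1071 and 1296 FPKM, 3.31 times higher in library 3 than in library 1. The other 13 markers of the list summed to 13.8, 27.1 and 29.9 FPKM, and 9 of these 13 were lowest in library 1. All 14 were above 0 in at least 1 library, and Kcnj13 was at 0 in library 1. Over all genes 33.0% were lowest in library 1.

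In the same libraries the motile genes summed to 320, 315 and 285 FPKM and the transport genes to 340, 329 and 327 FPKM. Cfap36, Cfap20 and Rsph9 made up 54.4% of the motile sum of mean FPKM, so the motile sum leans on these genes. The 12 ependymal markers, all above 0 in all libraries and led by Cd24a, Mia and Rarres2, summed to 173, 166 and 169 FPKM. The leading 3 made up 69.7% of the summed mean FPKM. Of the 11 tested, 2 were higher than the median gene (18.2%, against 26.7% of all genes) and 6 were not called. Tekt1, Tekt4 and Ak7 were lower (27.3%, against 21.6%), and Hydin was at 0.173 ± 0.138 FPKM. Neurons also express Cd24a, so the sum is not a measure of ependymal cells. Of the 3 multiciliated genes, Ccdc153 was lowest in library 1, as Ttr was, while Foxj1 and Tmem212 were lowest in library 2. The part of choroid plexus or ependyma in the level of any cilia gene was not tested.

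**Figure D3:**
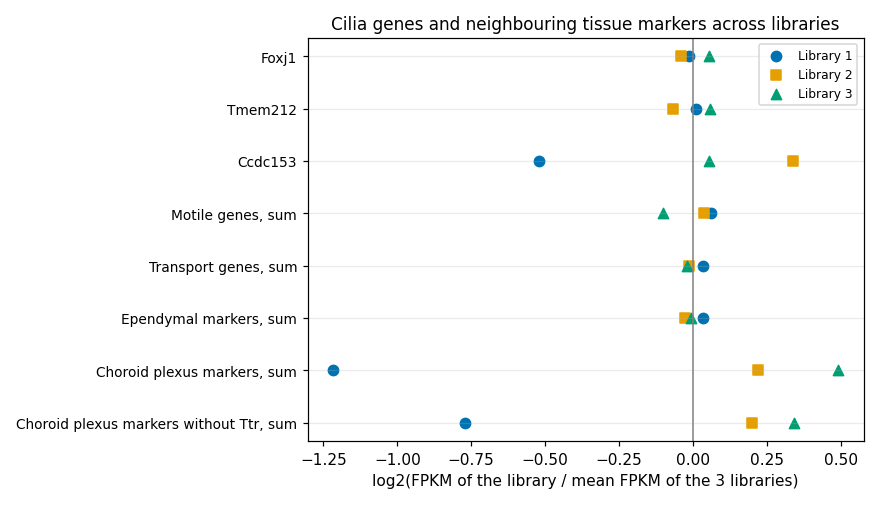
The x axis is log2 of each library's FPKM over the mean of the 3 libraries, for 3 genes of multiciliated cells and for summed gene lists; circles, squares and triangles are libraries 1, 2 and 3. Choroid plexus markers spread widely, with library 1 lowest (406 against 1098 and 1326 FPKM in libraries 2 and 3), whereas Foxj1, Tmem212, the motile sum and the transport sum stay near 0.

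The axonemal dynein heavy chains, the motor subunits that bend the axoneme, had the lowest median of the protein-coding motile roles, at 0.21 ± 0.0693 FPKM. Single genes of other roles were lower still, such as Cfap97d1 at 0. All 15 heavy chains were above 0 in at least 1 library, and 2 reached a mean of 1 FPKM. Their transcripts are long, so that low FPKM could still rest on many fragments. Dnah9, a heavy chain of the outer arm, stood at 1.25, 1.19 and 1.10 FPKM, on about 61, 69 and 90 fragments, while its outer-arm partner Dnah5 stood at 0.17, 0.17 and 0.13 FPKM. Dnah9 was 7.6 ± 0.763 times Dnah5, with no overlap between the values of these genes, and 1.88 times when 1 FPKM was added to both. Dnah9, at chr11:65831324-66168581 on the minus strand, was called lower than the median gene by -2.38 log2 units (SE 0.164; limma adjusted p = 0.000316; lower in 3 of 3 libraries).

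The inner-arm heavy chain genes Dnah2 and Dnah1 were near Dnah9, at 1.14, 0.71 and 0.90 FPKM and at 0.84, 0.76 and 1.10 FPKM. Dnah11, another outer-arm gene, was uneven, at 0.08, 0.57 and 0.80 FPKM, lowest in library 1. Dnah8, best known from the sperm flagellum, was uneven the other way, at 1.15, 0.34 and 0.25 FPKM. Dnah17, also a gene of the sperm flagellum, was listed at 0.02, 0.02 and 0 FPKM.

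The 3 Dnah7 genes cannot be read separately. Dnah7a stood at 3.45, 4.03 and 6.05 FPKM, Dnah7b at 1.11, 0.13 and 0.07 FPKM, and Dnah7c at 0, 0.41 and 0.01 FPKM. Of the 50-base words in their transcripts, 40.3%, 48.4% and 48.5% also occur in another gene. How the authors assigned shared reads is not given in the sources used here, so the order of these paralogs is uncertain. Dnah1 over Dnah7b gave 0.757, 5.85 and 15.7 in libraries 1, 2 and 3, with the sign of the difference turning between libraries.

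Radial spoke genes spanned a wide range. Rsph9, a spoke-head gene, stood at 32.4, 34.2 and 30.03 FPKM, and was higher than the median gene by 1.55 log2 units (SE 0.0771; above it in 3 of 3 libraries; adjusted p = 0.000667, limma). The other spoke-head genes were much lower, Rsph1 at 4.33, 4.32 and 5.75 FPKM and Rsph4a at 1.19, 1.05 and 1.38 FPKM. Rsph9 was 6.87 ± 1.44 times Rsph1, and Rsph4a 0.253 ± 0.0193 times Rsph1 (0.383 times with 1 FPKM added to both), without overlap in either pair. The transcript of Rsph9 is short, at 966 bases, and its value rested on about 83, 100 and 125 fragments.

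The stalk genes Rsph3a and Rsph3b followed Rsph9, at 26.8, 22.6 and 10.8 FPKM and at 15.5, 13.4 and 11.8 FPKM. They share 74.0% and 75.8% of their 50-base words with another gene, chiefly each other, so their separate values and the drop of Rsph3a in library 3 are uncertain. Rsph10b was at 2.14, 2.57 and 8.39 FPKM, high in library 3, and 16.0% of its exonic bases overlap other annotated genes, among them Pms2. Rsph14 at 0.36 ± 0.148 FPKM and Rsph6a at 0.123 ± 0.0115 FPKM rested on 5 fragments or fewer in each library.

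Of the nexin-dynein regulatory complex, Drc1 led at 4.75, 4.73 and 5.61 FPKM, followed by Drc3 at 2.62, 3.77 and 4.37 FPKM. Drc1 was higher than Drc3 in every library, 1.45 ± 0.314 times. Neither was called against the median gene in the main run. Drc3 was called lower with a pseudocount of 0.1 FPKM or over protein-coding genes alone (limma adjusted p 0.034 and 0.0334). Drc7 was uneven, at 0.31, 0.37 and 2.67 FPKM, which is about 3, 4 and 41 fragments. Library 3 stood apart from the other two. Drc7 was called lower than the median gene (-2.60 log2 units, SE 0.331; limma adjusted p = 0.00367; lower in 3 of 3 libraries), and the call was lost when every gene above 0 was tested (adjusted p = 0.0956).

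Among the Cfap genes, which share a name for cilia- and flagella-associated proteins but not a function, 3 stood far above the rest. Cfap36, whose product is known to bind the GTPase ARL3, was at 103, 99.8 and 80.5 FPKM, and was higher than the median gene by 3.06 log2 units (SE 0.0847; above it in 3 of 3 libraries; adjusted p = 1.21e-06, limma). Cfap20, a conserved protein of the axoneme, was at 38.5, 46.3 and 35.8 FPKM. Cfap298, an assembly factor of dynein arms, was at 29.6, 30.6 and 35.8 FPKM, although 56.6% of its exonic bases overlap other annotated transcripts. Together these 3 made up 79.3% of the summed mean FPKM of the 31 Cfap rows. The position of Cfap36 is chr11:29218918-29247317, minus strand.

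The next Cfap genes were Cfap300, a further assembly factor of dynein arms, at 7.63 ± 1.51 FPKM, and Cfap74, of the central apparatus, at 4.71 ± 0.318 FPKM. Of the 18 Cfap genes tested, 3 were higher than the median gene (16.7%, against 26.7% of all genes). Lower were 10 (55.6%, against 21.6%), and 5 were not called. The 10 lower ones included Cfap52 at 1.47 ± 0.345 and Cfap45 at 1.72 ± 0.709 FPKM, which encode proteins inside axonemal microtubules. Cfap161, Cfap206, Cfap44 and Cfap61 were also among them. When every gene above 0 was tested, Cfap97d2 was the 1 of these 10 that kept its call (limma adjusted p = 0.0431). It stood at 0.92, 0.5 and 1.73 FPKM in libraries 1, 2 and 3, which is about 3, 2 and 10 fragments. A further 13 Cfap rows had means under 1 FPKM, and Cfap97d1 was listed at 0 in all libraries.

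By the SD of log2(FPKM + 1), the most uneven members with a mean of at least 1 FPKM were Cfap70, Rsph10b and Drc7. Cfap70, a gene linked to the outer dynein arm, stood at 6.78, 0.42 and 0.88 FPKM, about 83, 6 and 18 fragments. Library 1 stood apart from the other two. Cfap70 was not called against the median gene (adjusted p = 0.0597) and was called without library 1 (adjusted p = 0.000873). Rsph10b was called lower without library 3 (adjusted p = 0.0136, against 0.385 with all 3). Cfap70 was also called with a pseudocount of 0.1 FPKM or over protein-coding genes alone (adjusted p 0.0386 and 0.029), and both genes under a null of no difference (0.00466 and 0.00804). Cfap61, at 2.24, 0.28 and 2.13 FPKM, was low in library 2 instead, so the library that stood apart was not the same for all.

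**Figure D4:**
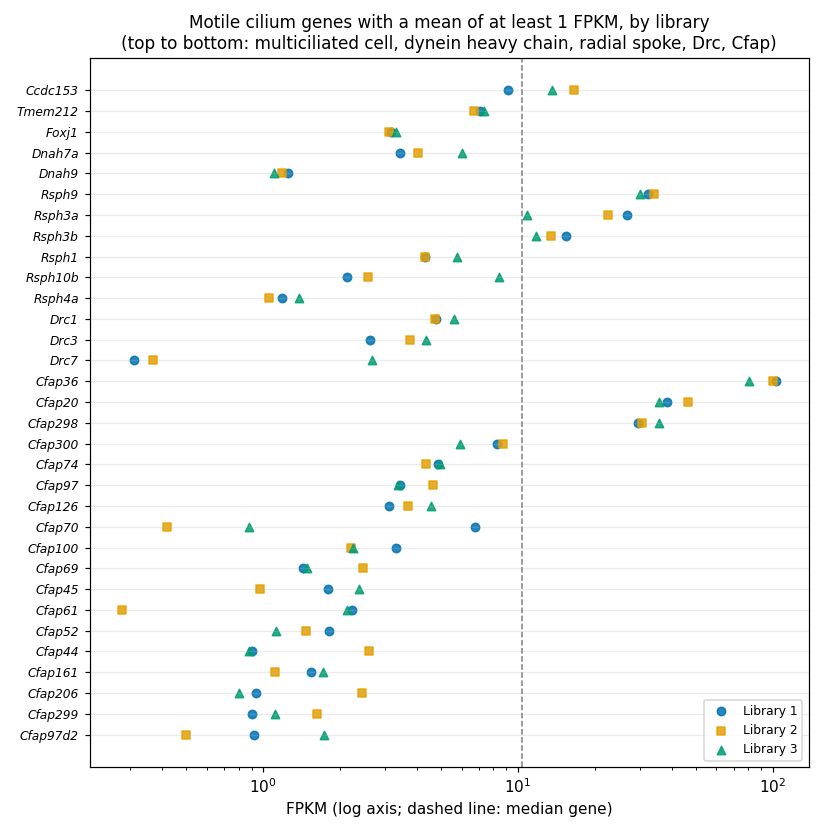
FPKM on a log axis for the 3 genes of multiciliated cells and the 29 motile genes with a mean of at least 1 FPKM, with circles, squares and triangles for libraries 1, 2 and 3 and a dashed line at the median gene. Rsph9, Rsph3a, Rsph3b, Cfap36, Cfap20 and Cfap298 lie right of the line in all libraries, and the 3 libraries of Cfap70, Drc7 and Cfap61 lie far from each other.

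Of the transport members, the 11 IFT-B genes with Ift symbols had the highest median level. Higher than the median gene by more than 2-fold were 5 of 11 (45.5%, against 26.7% of all genes). Of the rest of these 11, 0 were lower (against 21.6% of all genes) and 6 were not called. IFT genes without an Ift symbol stand in the list of further transport genes, and some of those were called lower. Ift20, whose product also resides at the Golgi, led at 86.4, 85.6 and 70.7 FPKM, 2.85 log2 units above the median gene (SE 0.0798; above it in 3 of 3 libraries; adjusted p = 1.54e-06, limma). Ift57 was at 37.1, 32.2 and 32.1 FPKM and Ift27, a small GTPase of the complex, at 27.5, 29.2 and 32.3 FPKM. Ift22 and Ift46 were the other 2 called, at 28.8 ± 2.10 and 26.7 ± 4.52 FPKM. The call of Ift46 was marginal (adjusted p = 0.0491) and was lost without library 1, without library 3 or over protein-coding genes alone (adjusted p 0.125, 0.241 and 0.123). The position of Ift20 is chr11:78536361-78541732, plus strand.

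The other 6 IFT-B genes with Ift symbols were not called. Ift80 was near the threshold (adjusted p = 0.0513, limma). It was called lower with a pseudocount of 0.1 FPKM or over protein-coding genes alone (limma adjusted p 0.0178 and 0.0184). Ift74 and Ift81, whose products pair to bind tubulin, were at similar levels of 13.4 ± 2.79 and 11.6 ± 2.02 FPKM. Ift88, the subunit whose loss is the classic way to remove cilia in mice, stood at 5.15, 3.95 and 4.24 FPKM, and Ift20 was 18.4 ± 2.85 times Ift88. Ift172 stood at 4.96, 5.36 and 12.2 FPKM, about 93, 117 and 380 fragments, and was high in library 3.

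The 3 IFT-A genes with Ift symbols were not called against the median gene. Ift122 stood at 5.42, 4.32 and 4.50 FPKM and Ift140 at 5.37, 3.80 and 4.72 FPKM, in the range of Ift88. The ratios to Ift88 were 1.07 ± 0.0217 for Ift122 and 1.04 ± 0.0756 for Ift140, and the values of each pair overlapped. Ift43, the small IFT-A subunit, was at 14.0, 17.2 and 20.2 FPKM and 3.80 ± 1.04 times Ift140.

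The 6 genes of the BBSome with Bbs symbols ran from -1.16 (Bbs2) to 0.576 (Bbs4) log2 units against the median gene. Of these, 6 of 6 were not called against the 2-fold null. Of its genes without a Bbs symbol, Bbip1 was higher than the median gene by 3.81 log2 units (SE 0.0706, limma adjusted p = 1.24e-07). Ttc8, at 0.0235 log2 units, was not called. Under a null of no difference, Bbs1, Bbs2, Bbs7 and Bbs9 were lower (limma adjusted p 0.00192, 0.000747, 0.0305 and 0.000191). Under the same null Bbs4 was higher (adjusted p 0.000711, limma). Bbs4 stood at 17.1, 15.7 and 15.0 FPKM, Bbs5 at 11.1, 17.9 and 10.04 FPKM and Bbs7 at 8.12, 8.97 and 7.6 FPKM. Bbs5 was high in library 2, while Bbs4 and Bbs7 were even. Bbs2 was lower, at 2.78, 5.19 and 4.59 FPKM, and Bbs4 was 4.15 ± 1.75 times Bbs2 without overlap. Bbs1 and Bbs9 were at 5.58 ± 1.20 and 4.19 ± 0.681 FPKM.

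Bbs10 and Bbs12 encode chaperonin-like proteins that assemble the BBSome and are not part of it. Among the genes with Ift or Bbs symbols, they were the ones called lower than the median gene. They stood at 2.38, 1.34 and 1.75 FPKM and at 1.11, 1.31 and 1.48 FPKM (limma adjusted p = 0.0014 and 0.00044; lower in 3 of 3 libraries each). Both calls were lost when every gene above 0 was tested (adjusted p = 0.734 for Bbs10 and 0.0841 for Bbs12). Bbs10 was above Bbs12 in each library, but the values of the pair overlapped (1.45 ± 0.607 times).

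The 3 GTPase genes stood at very unequal levels. Arl3, which releases lipid-modified cargo from its carriers inside the cilium, stood at 197, 224 and 182 FPKM, the highest of all members and 4.15 log2 units above the median gene (SE 0.0779; above it in 3 of 3 libraries; adjusted p = 1.16e-07, limma). Arl6, which recruits the BBSome to membranes, was at 23.8, 18.5 and 18.0 FPKM, and Arl13b, the membrane GTPase that activates ARL3 and serves as a marker of cilia, at 4.22, 4.21 and 2.41 FPKM. Arl3 was 58.5 ± 15.2 times Arl13b and Arl6 5.83 ± 1.54 times. Foxj1 and Arl13b were at about the same level (0.959 ± 0.366 times), with Foxj1 lower in libraries 1 and 2 and higher in library 3. The position of Arl3 is chr19:46531109-46573182, minus strand.

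**Figure D5:**
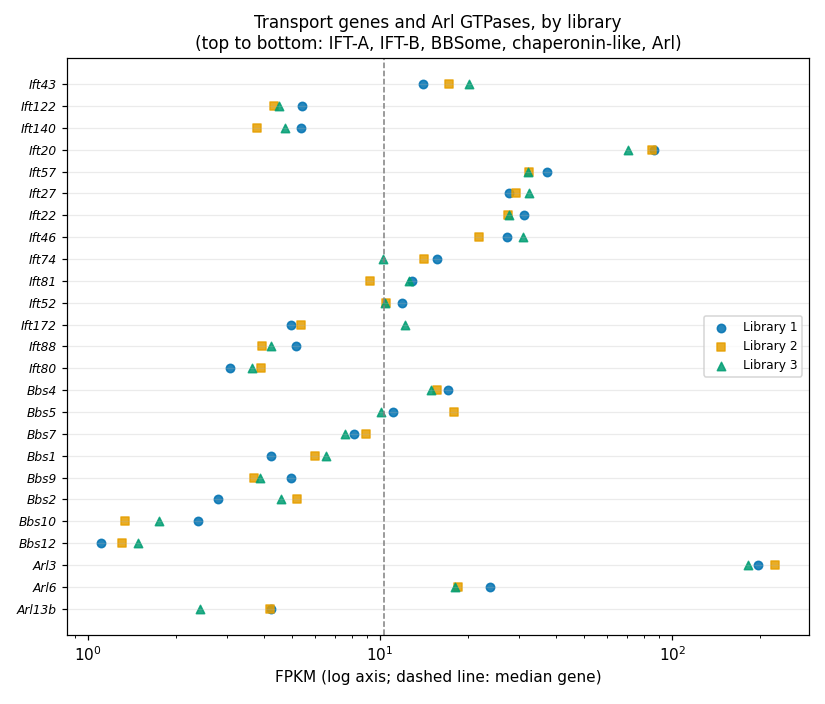
FPKM on a log axis for the IFT, Bbs and Arl genes, grouped by complex from top to bottom, with circles, squares and triangles for libraries 1, 2 and 3 and a dashed line at the median gene. Within IFT-B the genes run from Ift20 at 80.9 FPKM to Ift80 at 3.54 FPKM, and Ift172 shows library 3 apart from libraries 1 and 2.

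The library with the highest value was counted for each gene. Of 29 motile genes with a mean of at least 1 FPKM, 8 were highest in library 1, 8 in library 2 and 13 in library 3. Of 22 transport genes, 12, 4 and 6 were. Over all genes the shares were 36.5%, 32.6% and 30.9%. The median SD of log2(FPKM + 1) over the libraries was 0.236 for the motile and 0.173 for the transport genes tested, against 0.175 for all genes tested. No test was made of these counts.

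Cilia genes outside the symbol rule were taken from lists, whose counts stand against 26.7% of all genes called higher and 21.6% called lower. Matching was by the listed symbol, so a gene not matched may stand in the table under another symbol. Of 37 further axonemal genes, 32 were matched and 23 reached 1 FPKM. Of these 23, 1 was higher than the median gene, 14 were lower and 8 were not called. Dnal1, a light chain of the outer dynein arm, was the higher one at 28.8 ± 3.15 FPKM, followed by Nme5 at 19.8 ± 3.69 and Gas8, another regulatory complex gene, at 9.74 ± 2.07 FPKM. Ccdc39 and Ccdc40, whose products act together as a molecular ruler of the axoneme, stood apart at 5.33 ± 1.12 and 0.747 ± 0.212 FPKM.

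Of 24 further transport genes, 22 were matched by symbol and 21 were tested, with 5 higher, 7 lower and 9 not called. The BBSome subunit gene Bbip1 led at 164, 168 and 144 FPKM, above every Bbs gene. The kinesin-2 genes Kifap3 at 61.3 ± 5.63 and Kif3a at 28.9 ± 6.39 FPKM were also higher than the median gene, while Kif3b at 14.9 ± 1.99 FPKM was not called and Kif17 at 3.17 ± 0.477 FPKM was lower. Products of these kinesin genes serve transport in axons and dendrites as well. Hspb11, which encodes the partner of Ift27, was at 32.6 ± 2.75 FPKM, next to 29.7 ± 2.44 FPKM for Ift27 itself. The retrograde motor gene Dync2h1 was among the lower ones at 1.02 ± 0.108 FPKM. So were the IFT-A genes Wdr19 and Ttc21b, by -1.46 and -1.96 log2 units (limma adjusted p 0.0128 and 0.00113). The IFT-B genes Traf3ip1, Ttc26 and Ttc30a1 were lower by -1.53, -1.74 and -2.15 log2 units (limma adjusted p 0.00796, 0.00265 and 0.000845). Wdr35 of IFT-A and Cluap1 and Ttc30b of IFT-B were not called.

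In the list of the transition zone, the gate at the base of the cilium, 3 of 21 genes were higher than the median gene, 9 were lower and 9 were not called. The higher ones were B9d2 at 29.3 ± 2.32, B9d1 at 28.7 ± 3.65 and Ahi1 at 27.3 ± 1.58 FPKM. Rpgrip1l was uneven, at 1.15, 1.94 and 9.77 FPKM, high in library 3. Among 22 genes of ciliary membrane and signalling, 3 were higher, 7 were lower and 12 were not called. The higher ones were the cargo carrier genes Pde6d at 59.2 ± 6.2 and Unc119 at 32.5 ± 3.06 FPKM, and Arl2bp at 96.7 ± 4.28 FPKM.

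Genes of the neuronal primary cilium were measured at low to moderate levels. The adenylyl cyclase gene Adcy3 stood at 8.90, 9.70 and 10.02 FPKM, the somatostatin receptor gene Sstr3 at 5.69, 5.33 and 5.13 FPKM and the melanin-concentrating hormone receptor gene Mchr1 at 6.82, 6.4 and 6.25 FPKM. None of these 3 was called against the median gene. The serotonin receptor gene Htr6 was lower, at 1.94, 2.17 and 1.85 FPKM, and was called (-1.93 log2 units, SE 0.147; limma adjusted p = 0.00113; lower in 3 of 3 libraries).

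Among regulators of ciliation, 8 of 15 genes reached 1 FPKM, with 1 higher, 3 lower and 4 not called. The higher one, Tfdp1 at 28.7 ± 1.31 FPKM, also serves the cell cycle, as do E2f4 and E2f5, which were not called. The RFX genes Rfx3 and Rfx4 were at 4.73 ± 0.416 and 4.75 ± 0.690 FPKM, and Rfx2 was lower at 1.04 ± 0.251 FPKM. The early regulators of multiciliated fate were at or near the level of a few fragments: Mcidas was listed at 0, 0 and 0.08 FPKM, Gmnc at 0.66, 0.57 and 0.26 FPKM, and Foxn4 at 0 in all libraries.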

How the data were processed

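Total RNA of 3 hippocampus libraries (1 group) was sequenced as paired reads of 150 bases, per the labels' protocols. The authors deposited 1 table of FPKM values per the file headers, a column for each library; it held 0 columns of other samples. Bowtie2 and GRCm38 (mm10) are named in the submitters' processing notes; the counting tool, annotation, versions and use of strand are not given in these sources. FPKM were used as deposited. Depth is not stated. It was estimated, after the data were seen, from transcripts of 800 to 4000 bases: with the fitted depth, values of up to 4 fragments came out whole, within 0.15, for 97.2%, 96.9% and 95.8% of them, a share that the fit itself maximised. Fragment numbers used the longest coding GENCODE M21 transcript, so they are approximate, and floors cover counting error only.

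Genes with a mean of at least 1 FPKM were tested as log2(FPKM + 1) minus the library median, with limma 3.58.1 in R 4.3.3 (treat, null of at most 1 log2 unit, two-sided, trend, Benjamini-Hochberg, calls at adjusted p under 0.05). Tested on simulated data for 13337 genes in this comparison, it called 98% and 94% of genes at true differences of -3 and 3 log2 units. At -2 and 2 it called 60% and 52%, and 0 null genes were called. The null genes were placed well inside 1 log2 unit and made up nearly all genes, and spreads were reassigned among genes. The 0 therefore does not measure the error rate in these data. The 15 gene ratios are means over libraries, with no test; 1 planned pair was not analysed here because its Dnai genes were not in the rows used. The members, the 14 lists of 179 genes and the pairs were chosen with earlier results of these data known. Values per library are given for the 3 highest members of each role, all 6 genes taken by name, the pairs and the 3 most uneven members, and for further members and list genes picked after their values were seen. RefSeq of GRCm38.p6 matched 84 members. Scripts ran on Python 3.11.15, using matplotlib 3.10.9, scipy 1.17.1, pandas 2.3.3 and numpy 2.4.6.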

Additional observations from a re-analysis of the deposited data

How the results depend on the processing

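The sign of the motile minus transport difference was the same under every alternative run, and its size was not. It was -1.40 log2 units over members with a mean of at least 1 FPKM, -3.35 with a pseudocount of 0.1 FPKM and -1.86 with means in place of medians, against -2.47; leaving out 1 library gave -2.62 to -2.36. Without the opposite-strand transcripts, and without 10 members that share over 10% of their sequence or exons (both added after the data were seen), it was -2.53 and -2.49. Testing every gene above 0 sets the median gene over more low genes. It gave 31 lower motile genes of 57, and 0 lower and 8 higher transport genes of 22. Of the 13 motile genes called lower, 10 lost the call. Dnah9, Rsph4a and Cfap97d2 kept it, with adjusted p of 0.0354, 0.0465 and 0.0431 (limma). Cfap97d2 rested on about 3, 2 and 10 fragments in libraries 1, 2 and 3. Adding 1 FPKM to both genes moved 3 of the 15 ratios beyond their SD: Dnah9 over Dnah5 to 1.88, Rsph4a over Rsph1 to 0.383 and Ift20 over Ift88 to 15.1. A null of no difference gave 23 lower motile genes, 10 lower transport genes and 8 higher ones. With a pseudocount of 0.1 FPKM, and also over protein-coding genes alone, 17 motile and 3 transport genes were lower, against 13 and 2. The genes gained in both runs were Cfap70, Cfap97, Cfap126, Drc3 and Ift80. Motile genes highest in library 1 numbered 21 of 57 when genes under 1 FPKM were included, against 8 of 29. Leaving out 1 library gave 13 to 14 lower and 4 higher motile genes, and 2 lower and 4 to 5 higher transport genes. At this depth, values under about 0.5 FPKM on a transcript of 2 kb rested on 3 fragments or fewer in library 1, and their order was not resolved. No paired analysis was possible because all libraries belong to 1 group.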
